A study of Homo sapiens with 12 samples.

Results

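The prostaglandin pathway was followed through 10 genes, PLA2G4A, PTGS1, PTGS2, PTGES, PTGES2, PTGES3, PTGIS, PTGER2, PTGER4 and HPGD, which were found by symbol among the 62069 genes of the count table. They were chosen with values of these libraries known: PTGS2 was selected on its difference between 2 shRNAs against XPO7, and the other 9 genes because they act in the same pathway. The levels of PTGS2 in libraries with an shRNA are therefore given as a description, with no test. Of the 10 genes, 9 passed the filter on low counts and HPGD did not.

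Prostaglandins are short-lived lipid signals made from arachidonic acid. Cytosolic phospholipase A2 frees the acid from membranes, a cyclooxygenase turns it into the common precursor PGH2, terminal synthases convert PGH2 into single prostanoids such as PGE2 and prostacyclin, and these act on G protein-coupled receptors on the same or neighbouring cells until they are oxidised. In fibroblasts the inducible cyclooxygenase PTGS2 responds to growth factor, RAS and cytokine signals. PGE2, which PGE synthases make from PGH2, raises cAMP through the receptors PTGER2 and PTGER4.

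RNA-seq counts came from IMR90 ER:RAS cells, a line of human lung fibroblasts that carry a RAS protein fused to the estrogen receptor, in which 4-hydroxytamoxifen (4OHT) activates RAS and starts oncogene-induced senescence (OIS). There were 4 groups of 3 libraries, all from cells of passage 13 grown for 7 days with new medium on day 4: non-induced cells (vector), cells induced with 100 nM 4OHT for 5 days (vector/4OHT), and induced cells with the shRNA shXPO7_3 (shXPO7_3/4OHT) or shXPO7_5 (shXPO7_5/4OHT) against XPO7, an exportin. The labels give the non-induced cells the same day 5 as the others. RAS was expressed from a transgene in a single fibroblast line, there was no non-induced group with an shRNA, and the labels leave unsaid whether replicate libraries derive from different cultures, so a p-value here is set against a library spread that may be technical only.

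Total counts per library ran from 28534141 to 60397769. All 10 fibroblast markers were above 1 CPM (counts scaled to library size) in every library, with a summed level of 17514 to 28965 CPM. The summed levels were 8.18 to 14.8 CPM for 5 endothelial markers, 1.72 to 6.86 CPM for 5 epithelial markers and 0.371 to 0.822 CPM for 6 leukocyte markers. Of each of these lists, 2 markers were at 0 in all libraries. Above 1 CPM in every library were 2 endothelial markers (TEK and VWF), 1 epithelial marker (CLDN4) and 0 leukocyte markers. The targeted gene XPO7 averaged 137 ± 8.81 CPM in vector/4OHT, 27.7 ± 1.14 CPM in shXPO7_3/4OHT and 52.2 ± 1.62 CPM in shXPO7_5/4OHT (SD, n = 3), so shXPO7_5 left more XPO7 mRNA than shXPO7_3.

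The promoters of the cyclooxygenases and of PTGER2 are shown because PTGS2 and PTGER2 changed in opposite directions in OIS while PTGS1 is the constitutive counterpart of PTGS2. Each runs from 250 bases before to 50 bases after the gene start in RefSeq (GRCh38.p14), on the strand of the gene. They lie at chr1:186680374-186680673 (minus strand) for PTGS2, chr9:122370283-122370582 (plus strand) for PTGS1 and chr14:52314062-52314361 (plus strand) for PTGER2. Capitals mark the motifs searched on both strands: TATAAA, the CRE half-site TGACG, the AP-1 site TGANTCA, the E-box CANNTG, the C/EBP site TTNNGCAA and the NF-kB site GGGRNNYYCC. In these patterns N is any base, R is A or G and Y is C or T.
PTGS2: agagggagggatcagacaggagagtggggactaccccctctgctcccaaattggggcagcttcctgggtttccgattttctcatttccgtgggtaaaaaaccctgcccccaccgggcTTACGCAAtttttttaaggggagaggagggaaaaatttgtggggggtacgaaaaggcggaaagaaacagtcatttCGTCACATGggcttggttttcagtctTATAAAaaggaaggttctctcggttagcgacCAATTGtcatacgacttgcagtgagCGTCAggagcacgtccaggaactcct
PTGS1: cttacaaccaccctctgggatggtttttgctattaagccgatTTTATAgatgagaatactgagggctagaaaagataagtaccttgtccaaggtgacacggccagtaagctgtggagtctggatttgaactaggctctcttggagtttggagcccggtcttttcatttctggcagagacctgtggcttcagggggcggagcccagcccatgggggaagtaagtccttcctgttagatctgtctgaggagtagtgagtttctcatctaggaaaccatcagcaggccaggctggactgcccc
PTGER2: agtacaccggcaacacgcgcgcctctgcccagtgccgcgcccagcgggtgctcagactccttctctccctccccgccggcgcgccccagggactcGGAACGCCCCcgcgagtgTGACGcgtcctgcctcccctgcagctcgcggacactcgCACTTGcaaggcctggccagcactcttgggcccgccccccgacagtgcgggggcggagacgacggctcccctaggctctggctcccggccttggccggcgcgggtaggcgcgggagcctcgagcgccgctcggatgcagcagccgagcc

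The PTGS2 window held TATAAA at -32 from the start, the C/EBP site at -133 and E-boxes at -55 and -1. It also held CRE half-sites at -58 and 25, both on the opposite strand. The CRE half-site at -58 shares bases with the E-box at -55. The PTGS1 window held 1 match, TATAAA on the opposite strand at -208. The PTGER2 window held an NF-kB site on the opposite strand at -155, a CRE half-site at -137 and an E-box at -99. Among 27305 RefSeq promoters of the same length, 12% held TATAAA, 25% a CRE half-site, 7.76% an AP-1 site, 68.9% an E-box, 10.6% a C/EBP site and 10.8% an NF-kB site. Promoter windows were found for 9 members, and over these TATAAA stood in 2, a CRE half-site in 3, an E-box in 5, an NF-kB site in 4, a C/EBP site in 1 and an AP-1 site in 0. The GC content of the window was 50.7% for PTGS2 and PTGS1, 74.7% for PTGER2 and 39.7% for PLA2G4A, beside a median of 58.3% over all promoters. A match describes these letters only, and the lack of a match does not show that a site is absent. In the PTGS2 window, gggactaccc differs from the NF-kB pattern in 1 base and is not marked.

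**Figure D1:**
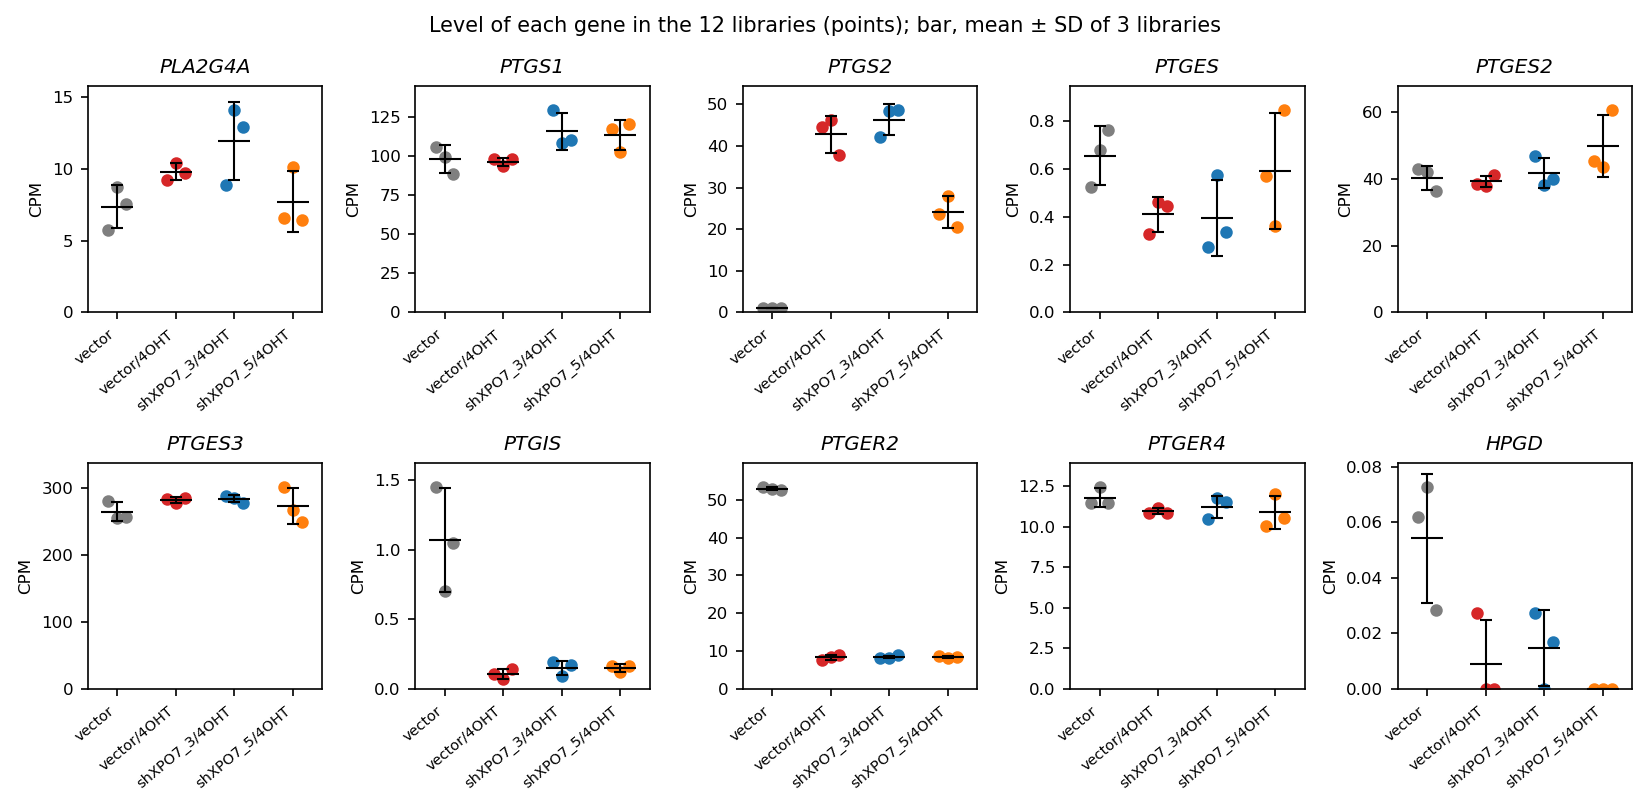
Level of each of the 10 genes in CPM (linear axis from 0) in the 4 groups. Points are the 3 libraries of a group, horizontal marks and bars the mean ± SD; PTGS2 rises from about 1 to 37.8 CPM or more with 4OHT and lies between 20.4 and 28.1 CPM in shXPO7_5/4OHT, while PTGER2 falls from over 52 to under 10 CPM in all 3 groups with 4OHT.

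In OIS, which was examined by comparing vector/4OHT with vector, PTGS2 rose 38.4-fold, and the PGE2 receptor gene PTGER2 and the prostacyclin synthase gene PTGIS fell to 0.159 and 0.109 of their level. The phospholipase PLA2G4A, the constitutive cyclooxygenase PTGS1, the PGE synthases PTGES, PTGES2 and PTGES3 and the receptor PTGER4 did not pass the test. Of the 9 members tested, 1 was called higher and 2 lower at an adjusted p below 0.05 (edgeR's quasi-likelihood test, Benjamini-Hochberg over all genes tested). PTGIS, among those called lower, passed the filter on low counts only through vector, the group where it was high. Over all 15284 genes tested, 50.9% were called, 24.8% higher and 26.1% lower, so the number of members called is no result about the pathway as a set. In bulk libraries, fewer cells that express a gene and less RNA per cell cannot be told apart.

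The arachidonate-releasing enzyme gene PLA2G4A (ENSG00000116711) was at 5.78, 8.74 and 7.59 CPM in vector and at 9.26, 10.5 and 9.72 CPM in vector/4OHT. All vector/4OHT libraries were above all vector libraries. The log2 fold change was 0.41 ± 0.21 (SE), with an adjusted p of 0.129 from edgeR. With a correction for GC content and transcript length it was 0.27 with an adjusted p of 0.0384, and in a fit to the 2 groups alone it was 0.41 with an adjusted p of 0.0391. These settings called 64.6% and 56.4% of all genes tested.

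PTGS1 (ENSG00000095303), which makes PGH2 for housekeeping functions in most tissues, was at 106, 99.3 and 88.6 CPM in vector and at 97.8, 93.3 and 97.8 CPM in vector/4OHT. The groups overlapped, and the 95% interval of the log2 fold change was -0.23 to 0.18. PTGS2 (ENSG00000073756) was at 1.08, 1.09 and 1.16 CPM in vector and at 44.6, 46.2 and 37.8 CPM in vector/4OHT. Its log2 fold change was 5.26 ± 0.15 (SE) with an adjusted p of 8.70e-11 (edgeR), and it was higher in 3 of 3 libraries. Per length of exons, PTGS2 made up 1.24% ± 0.161 of the summed level of both cyclooxygenases in vector and 32.8% ± 2.75 in vector/4OHT (SD, n = 3), so PTGS1 mRNA remained the more abundant of the pair in OIS.

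PTGES (ENSG00000148344), the inducible PGE synthase often paired with PTGS2, was low throughout. It was at 0.525, 0.680 and 0.765 CPM in vector and at 0.328, 0.461 and 0.444 CPM in vector/4OHT, which rest on 12 to 28 counts a library. The vector/4OHT libraries were all below the vector libraries, with a log2 fold change of -0.68 ± 0.34 (SE) and an adjusted p of 0.118 from edgeR. PTGES2 (ENSG00000148334), a second membrane-associated PGE synthase, averaged 40.4 ± 3.63 CPM in vector and 39.3 ± 1.74 CPM in vector/4OHT. PTGES3 (ENSG00000110958), the cytosolic PGE synthase that is also the HSP90 cochaperone p23, averaged 264 ± 14.4 CPM and 282 ± 4.37 CPM (SD, n = 3). The 95% interval of the log2 fold change was -0.32 to 0.23 for PTGES2 and -0.07 to 0.25 for PTGES3. PTGES3 has processed pseudogenes, and the sources used here do not give how reads with several matches were counted, which leaves its counts uncertain.

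PTGIS (ENSG00000124212), the synthase of prostacyclin, fell from 1.45, 0.704 and 1.05 CPM in vector to 0.109, 0.0709 and 0.141 CPM in vector/4OHT. These values rest on 29 to 47 counts a library in vector and on 2 to 7 in vector/4OHT. The log2 fold change was -3.20 ± 0.37 (SE) with an adjusted p of 1.50e-05 (edgeR). PTGIS passed the filter on low counts only through the vector libraries, where it was high. Its p-value is therefore no support for the fall that is independent of that filter.

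The receptors for PGE2 that raise cAMP differed in OIS. PTGER2 (ENSG00000125384) was at 53.5, 52.8 and 52.6 CPM in vector and at 7.71, 8.40 and 9.04 CPM in vector/4OHT. The log2 fold change was -2.66 ± 0.08 (SE) with an adjusted p of 9.32e-11 from edgeR, and the gene was lower in 3 of 3 libraries. PTGER4 (ENSG00000171522) was at 11.4, 12.5 and 11.5 CPM in vector and at 10.8, 11.2 and 10.8 CPM in vector/4OHT. These libraries did not overlap, but the log2 fold change of -0.11 (95% interval -0.30 to 0.08) did not pass the test. Per length, PTGER2 was the second most abundant member in vector, after PTGES3, at 21.4 ± 0.177 RPKM (CPM divided by the exon length in kilobases), and PTGER4 was at 2.98 ± 0.147. In vector/4OHT, PTGER2 was at 3.39 ± 0.269 RPKM and PTGER4 at 2.76 ± 0.0472 RPKM, so the levels of these receptors came close, with PTGER2 still above PTGER4 in every library.

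HPGD (ENSG00000164120), which oxidises and so inactivates prostaglandins, was almost absent. Its counts were 2, 3 and 1 in vector, 1, 0 and 0 in vector/4OHT, 1, 0 and 1 in shXPO7_3/4OHT and 0 in all 3 libraries of shXPO7_5/4OHT. A count of 0 over the shXPO7_5/4OHT libraries allows a level of up to 0.0296 CPM, for counting error only. No fold is given at these counts.

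The order of the members per length in vector/4OHT was PTGES3 at 82.9, PTGS1 at 16.6, PTGES2 at 12.9, PTGS2 at 8.13, PLA2G4A at 3.41, PTGER2 at 3.39, PTGER4 at 2.76, PTGES at 0.217, PTGIS at 0.0192 and HPGD at 0.00165 RPKM. Of neighbours in this order, only the libraries of PLA2G4A and PTGER2 overlapped. In vector, PTGS2 was at 0.211 RPKM and stood below PTGES at 0.346 RPKM, with libraries that overlapped those of PTGIS.

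**Figure D2:**
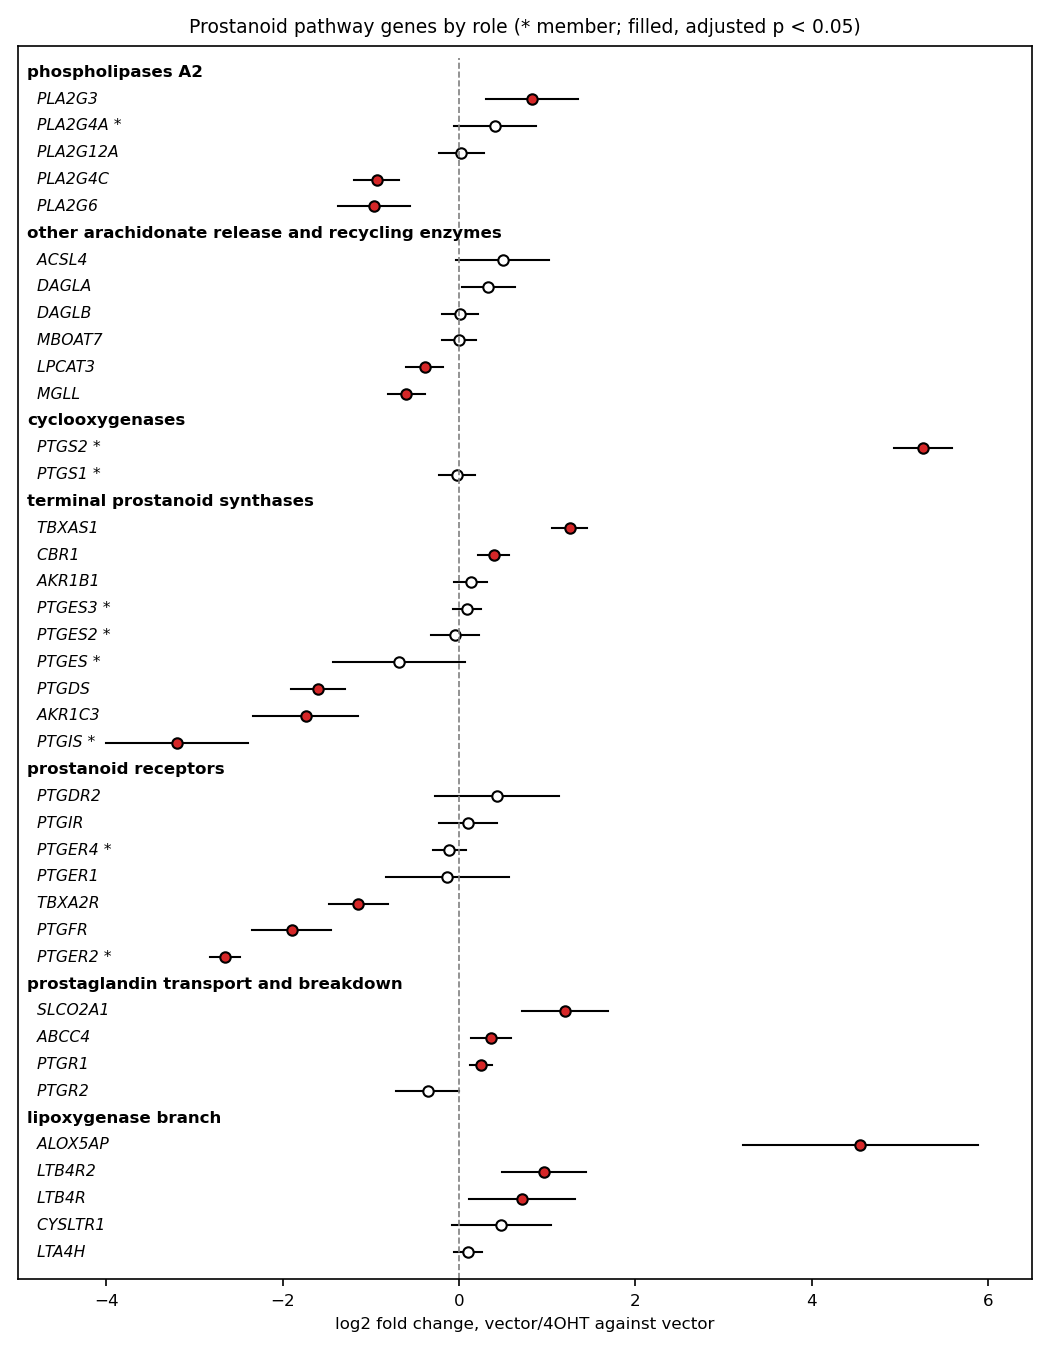
Log2 fold change of vector/4OHT against vector for the tested genes of the prostanoid pathway, grouped by role, with 95% intervals as lines. Filled points passed an adjusted p of 0.05, open points did not, and stars mark the members: PTGS2 lies at 5.26, and the 3 filled receptors, PTGER2, PTGFR and TBXA2R, all lie below 0.

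The wider pathway in OIS was read from 45 further genes, of which 29 passed the filter. Of these, 9 were called higher and 8 lower, beside 24.8% and 26.1% of all genes tested. These numbers are therefore no result about the pathway list. The same shares stand beside the counts by role given below. The median log2 fold change of the list was 0.10, beside a median of -0.01 over all genes tested. AKR1C3, CBR1, PLA2G3, MGLL, LPCAT3, ABCC4, PTGR1, ALOX5AP and LTB4R are named here after their values were seen.

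Among the 5 tested phospholipases A2, PLA2G4A included, PLA2G4C and PLA2G6 fell, with log2 fold changes of -0.93 and -0.96, and the secreted enzyme gene PLA2G3 rose by 0.83. Of 6 tested genes for other routes of arachidonate release and recycling, MGLL, the monoacylglycerol lipase, and LPCAT3, which returns arachidonate to phospholipids, fell by 0.60 and 0.39 on the log2 scale. Of 9 tested terminal synthases, 2 rose and 3 fell. TBXAS1, the thromboxane synthase, rose from 19.6 ± 1.87 to 46.8 ± 1.16 CPM (SD, n = 3; log2 fold change 1.26, adjusted p of 1.99e-07 from edgeR). CBR1, a carbonyl reductase that can convert PGE2 to PGF2alpha, rose by 0.39 on the log2 scale. PTGDS, the lipocalin-type prostaglandin D synthase, fell from 10.9 ± 0.796 to 3.60 ± 0.126 CPM with a log2 fold change of -1.59, and AKR1C3, which makes PGF2alpha, fell by 1.74 on the log2 scale. With PTGIS, the called synthases thus moved in both directions.

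Of 9 prostanoid receptor genes 7 were tested, 3 fell and 0 rose, beside 26.1% called lower and 24.8% higher over all genes tested. PTGFR, the receptor for PGF2alpha, fell from 11.1 ± 1.41 to 2.99 ± 0.0798 CPM, a log2 fold change of -1.90. TBXA2R, the thromboxane receptor, fell from 3.91 ± 0.346 to 1.77 ± 0.128 CPM, a log2 fold change of -1.14, while the synthase of its ligand rose. Of the 4 tested transport and breakdown genes, SLCO2A1, the uptake transporter for prostaglandins, rose from 0.736 ± 0.228 to 1.73 ± 0.292 CPM (log2 fold change 1.20), and ABCC4, which can export them, and PTGR1, a prostaglandin reductase, rose by 0.36 and 0.25 on the log2 scale. Of the 5 tested genes of the lipoxygenase branch, which takes arachidonic acid to leukotrienes, LTB4R2 (log2 fold change 0.96), LTB4R (0.71) and ALOX5AP (4.55) rose. ALOX5AP averaged 0.0206 CPM in vector and 0.509 CPM in vector/4OHT, so its fold change rests on near-zero counts. It passed the filter only through the groups with 4OHT, where it was higher. ALOX5 itself was at 0 in all libraries.

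The list of genes known to respond to cAMP, the messenger of PTGER2 and PTGER4, held 7 called higher and 0 called lower of 9 tested. Beside this count, and those of the lists that follow, stand shares of 24.8% higher and 26.1% lower over the whole data set. Whether these lists differ from those shares, and whether the cAMP list moved through these receptors, was not tested. SIK1, a kinase induced by CREB, rose from 2.65 ± 0.108 to 18.8 ± 1.27 CPM (log2 fold change 2.83), PDE4D, a cAMP phosphodiesterase, from 3.54 ± 0.543 to 15.3 ± 2.04 CPM (2.11), NR4A3 by 1.56 and PDE4B by 1.15 on the log2 scale. Of 8 genes for proteins that bind AU-rich elements, through which PTGS2 mRNA is known to be stabilised or degraded, 5 fell and 0 rose. CELF2 changed by -1.96, ZFP36L2 by -1.75 and ZFP36, which promotes decay of such mRNAs, by -1.16 on the log2 scale. Fibroblast markers moved with OIS, with 6 of 10 called lower and 0 higher and summed levels of 25082 to 28965 CPM in vector against 17514 to 19066 CPM in vector/4OHT, as did the summed epithelial markers (6.22 to 6.86 against 1.72 to 2.10 CPM) and endothelial markers (14.4 to 14.8 against 9.07 to 10.1 CPM), and their part in these results was not tested.

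Knockdown of XPO7 in induced cells was examined by setting each shRNA against vector/4OHT, to see whether the other members followed the difference of PTGS2. PTGS2 itself was at 42.1, 48.3 and 48.6 CPM in shXPO7_3/4OHT and at 23.6, 28.1 and 20.4 CPM in shXPO7_5/4OHT. The first range overlaps that of vector/4OHT, whereas all shXPO7_5/4OHT libraries lie below it. The group means were 108% and 56.1% of the vector/4OHT mean, and still 41.7-fold and 21.6-fold above the vector mean. The log2 difference of shXPO7_5/4OHT from shXPO7_3/4OHT, for which PTGS2 was selected, was -0.95. PTGS2 was thus lower with the shRNA that left more XPO7 mRNA. The PTGS2 share of the summed cyclooxygenase level per length was 30.7% ± 3.72 in shXPO7_3/4OHT and 19.0% ± 3.78 in shXPO7_5/4OHT (SD, n = 3).

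**Figure D3:**
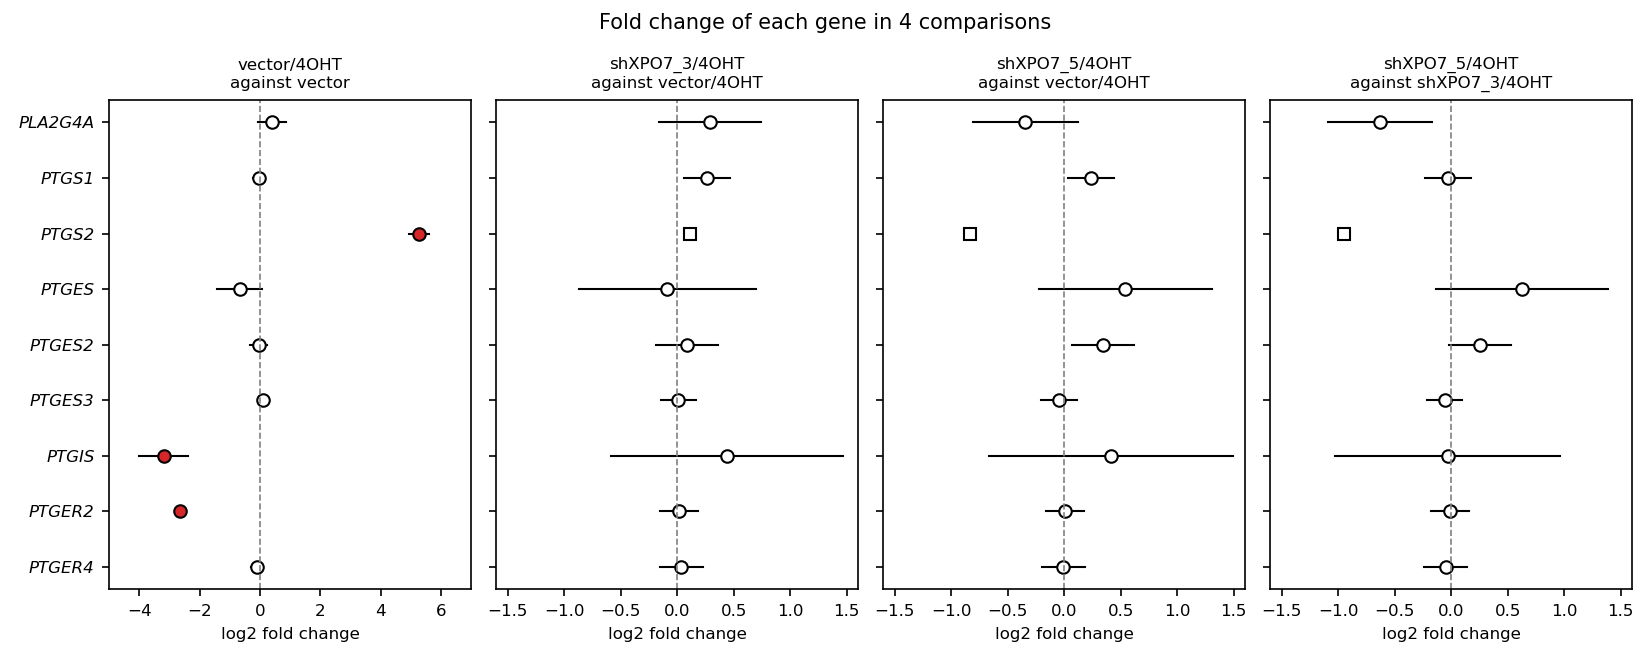
Log2 fold change of the 9 members that passed the filter in the 4 comparisons, with 95% intervals as lines and filled points for an adjusted p below 0.05. PTGS2 is drawn as a square without an interval where its libraries with an shRNA were used to select it; in the 3 comparisons with an shRNA no other member is filled, and the x axis is wider in the leftmost panel.

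None of the other 8 members tested was called in shXPO7_3/4OHT against vector/4OHT, in shXPO7_5/4OHT against vector/4OHT or between the shRNAs by edgeR. Over all genes tested, the calls came to 0.124%, 0.589% and 0.0131% in these comparisons, and at such shares 0 of 8 is no result about the members. At an unadjusted p under 0.05 there were 1, 2 and 1 of the 8, beside 6.41%, 21.6% and 11.9% of all genes tested, so these counts are no result about the members either. Both shRNAs share the vector/4OHT libraries as control. DESeq2 also called 0 of these members in each of the 3 comparisons, beside 97, 458 and 28 of the 31672 genes in that fit. This is again no result about the members.

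The gene whose values came nearest to the pattern of PTGS2 among the members was PLA2G4A, its neighbour on chromosome 1. It was at 8.86, 14.1 and 12.9 CPM in shXPO7_3/4OHT and at 6.57, 10.2 and 6.44 CPM in shXPO7_5/4OHT. The groups overlapped through replicate T of the first and replicate A of the second. The log2 fold change between the shRNAs was -0.63 (95% interval -1.09 to -0.17), with an adjusted p of 0.388 from edgeR. Over the 9 libraries with 4OHT, the Pearson correlation of its log2 CPM with that of PTGS2 was 0.83, a description of libraries that share their groups and depth. PTGS2 (chr1:186671791-186680427, minus strand) and PLA2G4A (chr1:186828953-186988981, plus strand) lie 148525 bases apart in GENCODE 29 (GRCh38).

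PTGS1 was at 129, 108 and 110 CPM in shXPO7_3/4OHT and at 117, 103 and 120 CPM in shXPO7_5/4OHT. All 6 libraries were above the 3 of vector/4OHT, which is a description without the share of all genes that separate in this way. The log2 fold changes were 0.27 and 0.24, and neither passed the test (adjusted p of 0.533 and 0.204 from edgeR). With the GC and length correction, the shXPO7_3 value was 0.24 with an adjusted p of 0.0066, in a fit that called 2.60% of all genes tested, and the shXPO7_5 value was 0.09 with an adjusted p of 0.231, in a fit that called 3.36%. Between the shRNAs the 95% interval of the PTGS1 log2 fold change was -0.23 to 0.17, and with the correction the value was -0.15 (adjusted p of 0.203).

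Of the PGE synthases, PTGES2 was at 46.8, 38.3 and 40.1 CPM in shXPO7_3/4OHT and at 45.5, 43.5 and 60.6 CPM in shXPO7_5/4OHT. The shXPO7_5/4OHT libraries were all above those of vector/4OHT, with a log2 fold change of 0.34 and an adjusted p of 0.189 (edgeR). With the GC and length correction, the PTGES2 value was 0.07 with an adjusted p of 0.421. Without replicate A of shXPO7_5/4OHT, PTGES2 (0.44, adjusted p of 0.0396) and PTGS1 (0.31, adjusted p of 0.0422) passed the test, in a fit that called 23.0% of all genes tested, and at that share 2 of 8 is no result about the members. PTGES ranged from 0.274 to 0.846 CPM over the 9 libraries with 4OHT, on 10 to 31 counts, and the intervals of its fold changes were wide, at -0.13 to 1.39 (95%, log2 scale) between the shRNAs. PTGES3 ranged from 249 to 302 CPM and PTGIS from 0.0709 to 0.192 CPM over the same libraries. The 95% interval between the shRNAs was -0.22 to 0.10 for PTGES3 and -1.02 to 0.97 for PTGIS, which rests on at most 10 counts a library.

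The receptors varied little between these groups. PTGER2 was at 8.23, 8.30 and 8.86 CPM in shXPO7_3/4OHT and at 8.62, 8.24 and 8.44 CPM in shXPO7_5/4OHT, and these ranges lie inside the 7.71 to 9.04 CPM of vector/4OHT. Its mean was 15.8%, 16.0% and 15.9% of the vector mean in vector/4OHT, shXPO7_3/4OHT and shXPO7_5/4OHT. The 95% interval of the log2 fold change against vector/4OHT was -0.15 to 0.18 for shXPO7_3 and -0.16 to 0.18 for shXPO7_5. PTGER4 ranged from 10.1 to 11.99 CPM over the 9 libraries with 4OHT, with an interval of -0.24 to 0.14 between the shRNAs.

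**Figure D4:**
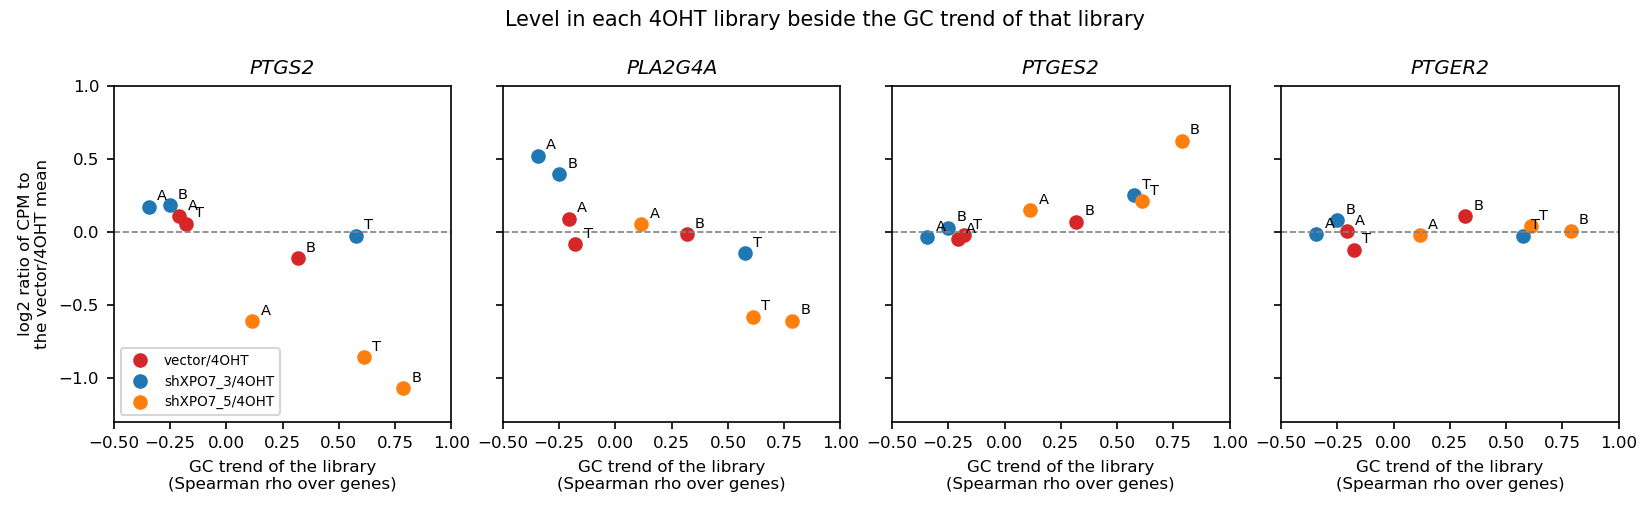
Log2 ratio of the CPM of 4 members to their vector/4OHT mean in each of the 9 libraries with 4OHT (y axis) against the GC trend of that library (x axis), the Spearman rho over genes between transcript GC content and the library's log ratio to vector/4OHT. Letters are replicates. PTGS2 is low in all 3 shXPO7_5/4OHT libraries and, within each group, lowest in the library with the highest GC trend. PLA2G4A is low and PTGES2 high in libraries with a high GC trend, and PTGER2 stays near 0.

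The base composition of the libraries moved with some of these values. The GC trend of a library, the Spearman rho over genes between transcript GC content and the log ratio to the vector/4OHT mean, was -0.18, -0.21 and 0.32 in vector/4OHT, 0.58, -0.34 and -0.25 in shXPO7_3/4OHT and 0.61, 0.12 and 0.79 in shXPO7_5/4OHT (replicates T, A and B). Transcript GC content was 39.4% for PTGS2 and 39.0% for PLA2G4A, at percentiles 8.34 and 7.02 of the genes tested, 63.9% for PTGES2, at percentile 95.7, and 50.0% for PTGER2. PLA2G4A was lowest in the shXPO7_5/4OHT libraries T and B and, within shXPO7_3/4OHT, in T, the libraries with the highest GC trends. Within each group with 4OHT, PTGS2 was likewise lowest in the library with the highest GC trend. These were vector/4OHT B at 37.8 CPM, shXPO7_3/4OHT T at 42.1 CPM and shXPO7_5/4OHT B at 20.4 CPM. Between groups, its log2 ratio to the vector/4OHT mean was -0.61 in shXPO7_5/4OHT A, with a trend of 0.12. In shXPO7_3/4OHT T, with a trend of 0.58, the ratio was -0.03. The part of base composition in the PTGS2 values was not tested. After correction for both GC content and length, the difference between the shRNAs was -0.68 for PTGS2, -0.34 for PLA2G4A (adjusted p of 0.278 from edgeR) and 0.01 for PTGES2.

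Of the 29 tested pathway genes outside the members, 0 were called in any comparison with an shRNA by edgeR, and 2, 7 and 5 had an unadjusted p under 0.05 in shXPO7_3/4OHT against vector/4OHT, shXPO7_5/4OHT against vector/4OHT and between the shRNAs, beside the 6.41%, 21.6% and 11.9% of all genes tested, which leaves no result about the pathway list. By DESeq2, 1 was called in shXPO7_5/4OHT against vector/4OHT, beside 458 of the 31672 genes in that fit. A single call is no result about the list. Their median log2 fold changes were 0.00, 0.10 and 0.06, beside medians of 0.00, 0.01 and 0.01 over all genes tested. Of the genes named for OIS, TBXAS1 was at 57.0 ± 3.83 and 50.1 ± 3.81 CPM, PTGDS at 3.73 ± 0.670 and 5.22 ± 0.797 CPM and PTGFR at 2.73 ± 0.797 and 1.99 ± 0.490 CPM in shXPO7_3/4OHT and shXPO7_5/4OHT (SD, n = 3).

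Outside the pathway, 1 of 8 genes for AU-rich element binding proteins and 1 of 9 cAMP response genes were called in shXPO7_5/4OHT against vector/4OHT, and none in the other comparisons with an shRNA. The share called over all genes tested was 0.589% there, 0.124% in shXPO7_3/4OHT against vector/4OHT and 0.0131% between the shRNAs. A single called gene is no result about either list. ZFP36L1, which promotes decay of mRNAs with AU-rich elements, was at 138, 134 and 137 CPM in vector/4OHT, 165, 158 and 160 CPM in shXPO7_3/4OHT and 178, 168 and 182 CPM in shXPO7_5/4OHT, and rose with shXPO7_5 by a log2 fold change of 0.37 (adjusted p of 0.0174 from edgeR). NR4A2, a nuclear receptor gene induced by cAMP, was at 6.20, 6.03 and 5.39 CPM in vector/4OHT, 4.67, 5.04 and 4.75 CPM in shXPO7_3/4OHT and 3.60, 3.78 and 3.41 CPM in shXPO7_5/4OHT, and fell with shXPO7_5 (log2 fold change -0.70, adjusted p of 0.0132). Between the shRNAs neither passed the test (adjusted p of 0.388 and 0.366). The ZFP36L1 call was lost without any 1 of the vector/4OHT libraries or without shXPO7_5/4OHT T or B, with an adjusted p of 0.057 to 0.108, and the NR4A2 call without vector/4OHT T or A or shXPO7_5/4OHT T or B, with 0.057 to 0.0834. In the fit to the 2 groups alone, the adjusted p was 0.101 for ZFP36L1 and 0.0862 for NR4A2. With the GC and length correction, the ZFP36L1 value for shXPO7_5 was 0.21 (adjusted p of 0.0395), and ZFP36L1 also passed for shXPO7_3, at 0.22 (adjusted p of 0.0385), as it did by DESeq2 at 0.25 (adjusted p of 0.0168).

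The genes whose log2 CPM was most like that of PTGS2 were listed by Pearson's r among 10454 tested genes whose average log2 CPM was 2 or more, with no test. Over all 12 libraries, where the step from vector to 4OHT sets most of the pattern, they were SAT1 (r of 0.998), PCNX1 (0.997), CXCL5 (0.997), PIEZO2 (0.997) and TFPI2 (0.995). Over the 9 libraries with 4OHT they were SLC19A2 (0.982), ZCCHC2 (0.978), IL1R1 (0.975), FAM217B (0.967) and TMED8 (0.957). Their transcript GC content was 39.7%, 49.1%, 42.3%, 40.7% and 43.1%, in this order. The GC trend also differs between these libraries, and its part in the correlations with PTGS2 was not tested. By Spearman's rho over the 9 libraries, IL1R1, the receptor for interleukin-1, came at rank 2 (0.983), while the other 4 ranked from 738 to 1516. The other members stood at r of 0.42 (PTGER4), 0.39 (PTGES3), -0.12 (PTGER2), -0.39 (PTGS1), -0.42 (PTGIS), -0.61 (PTGES) and -0.82 (PTGES2) with PTGS2 over the 9 libraries.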

How the data were processed

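The authors deposited raw counts of reads per gene for 12 RNA-seq libraries. Per the labels, the libraries were made with a stranded Illumina mRNA kit, and CASAVA 1.8.4, TopHat2 2.0.11, featureCounts 1.18.0 and hg19/GRCh37 are listed in the submitters' processing notes. Not given in the sources used here are the annotation, the strand setting and how multiply matching reads were counted. In GENCODE 29 no member shares exon bases with another gene.

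Groups followed the labels; the study calls non-induced cells vector. Symbols were matched by Ensembl identifier to 49517 genes, with 99.49% of counts. The 92 ERCC entries were 0 in all libraries and were left out. Library pairs within groups differed beyond sampling noise (chi-square per gene of 4.57 or more). Counts were analysed with edgeR 4.0.16 in R 4.3.3: filterByExpr, TMM and a quasi-likelihood fit over all 12 libraries, with Benjamini-Hochberg adjustment over 15284 genes and a threshold of 0.05. CPM used TMM-scaled totals, RPKM the exon length in GENCODE 29. With 3 against 3 libraries an exact permutation test allows no p under 0.1, so none is given. Where the libraries of compared groups are said not to overlap, this describes the values only. The share of all genes that separate in this way is not given. Fits were tested on data simulated with known changes. The shares given here come from simulated libraries without the GC trends of the real ones, so they may differ in these data. Of log2 changes of 0.5, 16.4% to 32.8% were called, depending on the comparison, and 4.2% to 7.8% of calls were false. A change of that size in a member could therefore be missed.

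The members and gene lists were chosen with earlier results of these data known. Named genes were the members, XPO7, listed genes called in a comparison (for OIS the 15 with the largest change and a mean log2 CPM of 0 or more) and the 5 genes most correlated with PTGS2. Alternatives were RLE and upper-quartile factors, other filters, DESeq2 1.42.0, a replicate block, a GC and length correction (a spline with 5 degrees of freedom per library, used as an offset), fits to 2 groups and each library left out.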

Additional observations from a re-analysis of the deposited data

Results flagged for a closer look

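XPO7 differed between the shRNAs by a log2 fold change of 0.92 (shXPO7_5/4OHT against shXPO7_3/4OHT, adjusted p of 3.87e-04 from edgeR's quasi-likelihood test), so the groups in which PTGS2 was compared differ in the strength of knockdown. It was flagged because the difference between these groups itself passed the test. In the fit to these 2 groups alone its adjusted p was 0.114. Of the members other than PTGS2, 0 were flagged in this way, and groups of 3 libraries are too small for a check of single libraries.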

How the results depend on the processing

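PTGS2, PTGER2 and PTGIS kept their direction and call in OIS under each alternative that gave them a value, with log2 fold changes of 5.11 to 5.35, -2.76 to -2.60 and -3.48 to -2.91; the filter of 1 CPM in at least 6 libraries left PTGIS out. The counts of called members and pathway genes in OIS ran from 2 to 4 and from 13 to 24. Upper-quartile factors moved the median of all genes in OIS to -0.105. PLA2G4A was called in OIS with the GC correction, the 2-group fit (values in the report), the replicate block (0.48, adjusted p of 0.0282 from edgeR) and both the correction and block (0.20, 0.0457).

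The members called other than PTGS2 came to 1 with the GC correction and 2 with the correction and block for shXPO7_3/4OHT (PTGS1, and with the block PLA2G4A), to 0 to 2 over the left-out libraries for shXPO7_5/4OHT, and to 0 under every alternative between the shRNAs. The pathway genes called came to 1 and 1 with the correction without and with the block for shXPO7_3/4OHT, to 1, 4 and, with DESeq2, 1 for shXPO7_5/4OHT (0 to 6 over the left-out libraries, with 6 of 29 without replicate A of shXPO7_5/4OHT, where 23.0% of all genes were called), and to 1 and 2 between the shRNAs. Beside these counts stand the calls over all 15284 genes with the correction, without and with the block. They were 397 and 489 for shXPO7_3/4OHT, 514 and 1020 for shXPO7_5/4OHT and 47 and 68 between the shRNAs. Whether the counts differ from these shares was not tested. The PTGS2 difference between the shRNAs was -0.68 with the correction and -0.68 with the correction and block. Against vector/4OHT, the shXPO7_5 value was -0.53 for both. Other alternatives left the difference between the shRNAs between -1.07 and -0.83. Over all genes, the calls for shXPO7_5/4OHT went from 90 to 3634 without its replicate A, to 514 with the correction and to 10 in the 2-group fit. Over the alternatives, the calls over all genes ran from 1 to 489 for shXPO7_3/4OHT (19 as reported, 97 with DESeq2), from 2 to 3634 for shXPO7_5/4OHT (458 with DESeq2) and from 0 to 68 between the shRNAs (2 as reported, 28 with DESeq2). The cause was not tested.

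Whether the replicate letters pair the samples was not tested. Deviations from the group means correlated over 0.1 in 8 of 15 pairs with the same letter (-0.23 to 0.59, median 0.11). Among pairs with different letters, 14 of 39 did so (-0.62 to 0.51, median -0.08). With the replicate block, the calls over all genes were 7987 in OIS, 13 and 149 for the shRNAs against vector/4OHT and 3 between them, and the PTGS2 difference between the shRNAs was -0.96.

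Of 502 OIS values and 726 values with an shRNA under the alternatives, 487 and 664 stayed as reported and 11 and 40 changed sign, all of genes that had not passed the test. In OIS, PTGS1, PTGES2 and PTGER4 turned to 0.0768, 0.0760 and 0.00516 with the correction and to 0.0506, 0.0502 and 0.0677 with the correction and block, and PTGES3 to -0.0246 with both and to -0.00738 with upper-quartile factors; over the left-out libraries PTGS1 ran from -0.0888 to 0.0372 and PTGES2 from -0.111 to 0.00468. For shXPO7_3/4OHT the left-out libraries gave -0.402 to 0.0888 for PTGES, -0.00824 to 0.144 for PTGES2, -0.00620 to 0.0240 for PTGES3 and -0.0434 to 0.0718 for PTGER2. For shXPO7_5/4OHT PTGES3 turned to 0.128 (correction), 0.121 (correction and block) and 0.00426 (upper quartile), PTGER2 to -0.0700 (correction), -0.0701 (correction and block) and -0.00102 (no filter), and PTGER4 to 0.00741 with RLE factors, 0.00798 with DESeq2 and 0.0402 with upper-quartile factors; the left-out libraries gave -0.125 to 0.0167, -0.0502 to 0.0704 and -0.0824 to 0.0438. Between the shRNAs PTGES3 turned to 0.0760 and 0.0741 with the correction without and with the block, ZFP36L1 to -0.00559 and -0.00631, PTGIS to 0.0207 with the block and 0.0221 with upper-quartile factors, and PTGS1, PTGER2 and PTGER4 to 0.0182, 0.0417 and 0.000600 with upper-quartile factors; the left-out libraries gave -0.0740 to 0.0639 for PTGS1, -0.136 to 0.0101 for PTGES3, -0.237 to 0.135 for PTGIS, -0.0219 to 0.0321 for PTGER2 and -0.120 to 0.00633 for PTGER4.

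Depth limits PTGIS, PTGES and HPGD, with at most 10, 31 and 1 counts a library with 4OHT.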
